A study of Mus musculus with 6 samples.

Results

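The genes described here are 40 genes of the cell cycle, chosen by name for their roles in DNA replication and mitosis, out of 55573 Ensembl gene identifiers in the count table. They comprised 18 S phase genes, 16 G2/M genes, 3 D-type cyclins and 3 inhibitors of cyclin-dependent kinases (CDKs). Their mRNA levels were compared between retinal cells of adult C57BL/6J mice given AAV2-*Ezh2* and those given AAV2-*GFP*, the control virus. In both groups the adeno-associated virus (AAV2) was injected into the vitreous, the optic nerve was crushed (ONC) 2 weeks later, and cells were sorted 3 days after ONC, so that every library came from an injured eye. Retinal ganglion cells (RGCs), which send their axons through that nerve, were enriched by sorting live cells that carried CD90.2, the product of *Thy1*. This protein is also carried by T cells in the mouse, and by the study's own account AAV2 can transduce retinal cells other than RGCs. Total RNA was read as 3 GFP libraries and 3 Ezh2 libraries, here called GFP 1 to 3 and Ezh2 1 to 3. No label says that these came from separate animals, so the p-values below measure only the spread between libraries.

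Dividing cells pass from G1, where D-type cyclins with CDK4 and CDK6 phosphorylate the retinoblastoma protein, into S phase, where DNA is copied. The E2F transcription factors released by that step switch on the replication genes, and a later wave of transcription under MYBL2 and FOXM1 switches on the genes of G2 and mitosis. Adult RGCs are postmitotic, so in this tissue such mRNAs are usually looked for in glia, vascular cells and immune cells.

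Total counts ranged from 30569933 to 35971192 per library. *Ezh2* itself (ENSMUSG00000029687) measured 28.8, 34.6 and 33.0 CPM (counts scaled to the same total in each library) in GFP 1 to 3 and 78.0, 65.3 and 105 in Ezh2 1 to 3, a log2 fold change of 1.17 ± 0.08 (SE) in the 5 libraries without Ezh2 3. Ezh2 3 stood apart from all others. Across genes its log2 CPM correlated with the other Ezh2 libraries at Pearson's r of 0.971 and 0.972, against 0.988 between Ezh2 1 and Ezh2 2 and 0.985 to 0.987 among GFP libraries (genes are not independent replicates). The study left 1 Ezh2 library out of its analysis, and the main comparison here likewise used GFP 1 to 3 and Ezh2 1 and 2. Ezh2 3 is given apart, and the main counts are given again with all 6 libraries.

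The labelled cell type was checked first. Of 12 RGC markers, the transcription factor genes *Pou4f1*, *Pou4f2* and *Pou4f3* lay at or near 0, with at most 0.600, 0.0932 and 0.404 CPM in any library. Other markers were detected, among them *Thy1*, the sorting target, at 87.2 to 114 CPM, *Rbpms* at 16.4 to 20.8 and *Nefl* at 9.42 to 15.4. Of the 10 tested, 4 rose and 0 fell in the 5 libraries at an adjusted p below 0.05 (edgeR). The shares of all tested genes were 10.1% and 7.68%. *Tubb3* (0.71 ± 0.15) and *Nefh* (0.72 ± 0.23) were called higher, being also over 1.5-fold, as were 2.52% of all tested genes. With all 6 libraries 3 rose, against 3.08% of all genes. The summed CPM of the 12 was 145 to 149 in GFP libraries and 182, 169 and 184 in Ezh2 1 to 3. The summed CPM of 8 Muller glia markers ranged from 22015 to 28459, and that of 14 T cell markers from 583 to 1305.

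In the 5-library comparison the cell cycle genes were higher under *Ezh2* overexpression by a small margin. Of the 39 genes with enough counts to test, 20 rose and 0 fell at an adjusted p below 0.05 (quasi-likelihood test of edgeR, Benjamini-Hochberg adjusted over 20241 genes). Among all tested genes 10.1% rose and 7.68% fell by that rule. The log2 fold change of the 20 ranged from 0.20 to 0.69, and the median over all 39 was 0.34, or 1.26-fold, against -0.01 over all tested genes. When a fold change above 1.5 was also required, 4 genes were called, *Cdc6*, *Rrm2*, *Aurkb* and *Cdkn1a*, all higher, where 2.52% of all tested genes were called higher and 1.28% lower. A test against a 1.5-fold change itself (glmTreat in edgeR) called 0 of the 4. The log2 fold change was above 0 for 36 of the 39 genes and for 9867 of all 20241 tested genes. The exceptions among the 39 were *Cenpe*, *Cenpf* and *Ccnd1*. The counts leaned on single libraries. Without GFP 3 the number past the adjusted p was 12, and without Ezh2 1 it was 9, while the number called was 2 without Ezh2 1 and 7 without Ezh2 2 (a lone Ezh2 library was then assumed to vary like the GFP libraries). Over all genes, in either direction, 3605 passed in the 5 libraries and 2772 without GFP 3. *Cdkn2a* had 3 to 11 counts in each library and was not tested. Relative to the GFP mean, 37 of the 39 were higher in Ezh2 1 and 33 in Ezh2 2, and 28 of the 39 were higher in Ezh2 1 than in Ezh2 2. In GFP 1 to 3 themselves 19, 28 and 12 of the 39 lay above the GFP mean. Of the 18 S phase genes 11, 11 and 5 did so, against 18 and 18 in Ezh2 1 and 2. Of the 16 G2/M genes 5, 13 and 6 did so, against 15 and 12 in Ezh2 1 and 2. In bulk RNA, more cells that express these genes and more of their mRNA in each cell cannot be told apart.

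Adding Ezh2 3 gave a larger median log2 fold change, 0.54, and 38 of 39 were above 0, but the spread within the Ezh2 group grew. Of 19715 genes tested in both fits, 10049 were above 0 with all 6 libraries. The median SE went from 0.13 to 0.20. Only *Mcm7* and *Cdkn1a* then had an adjusted p below 0.05, at 0.0496 and 0.0235 (edgeR quasi-likelihood test), or 2 of 39 against 3.08% of all genes. *Cdkn1a* alone was also over 1.5-fold, where 1.62% of all genes were called higher. Exons of both *Mcm7* and *Cdkn1a* overlap an antisense gene. Leaving out any 1 GFP library of the 6 left 0 past the adjusted p, leaving out Ezh2 1 left 1, *Rrm2*, and leaving out Ezh2 2 left 4. Few genes of any kind passed in those fits. Over all genes, in either direction, the numbers were 112, 217 and 135 without GFP 1, 2 and 3. They were 661 and 840 without Ezh2 1 and 2. At an unadjusted p under 0.05 there were 21 of 39, where 24.5% of all genes were. Every Ezh2 library lay above every GFP library for 23 of the 39 genes, and for 14.9% of all genes.

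**Figure D1:**
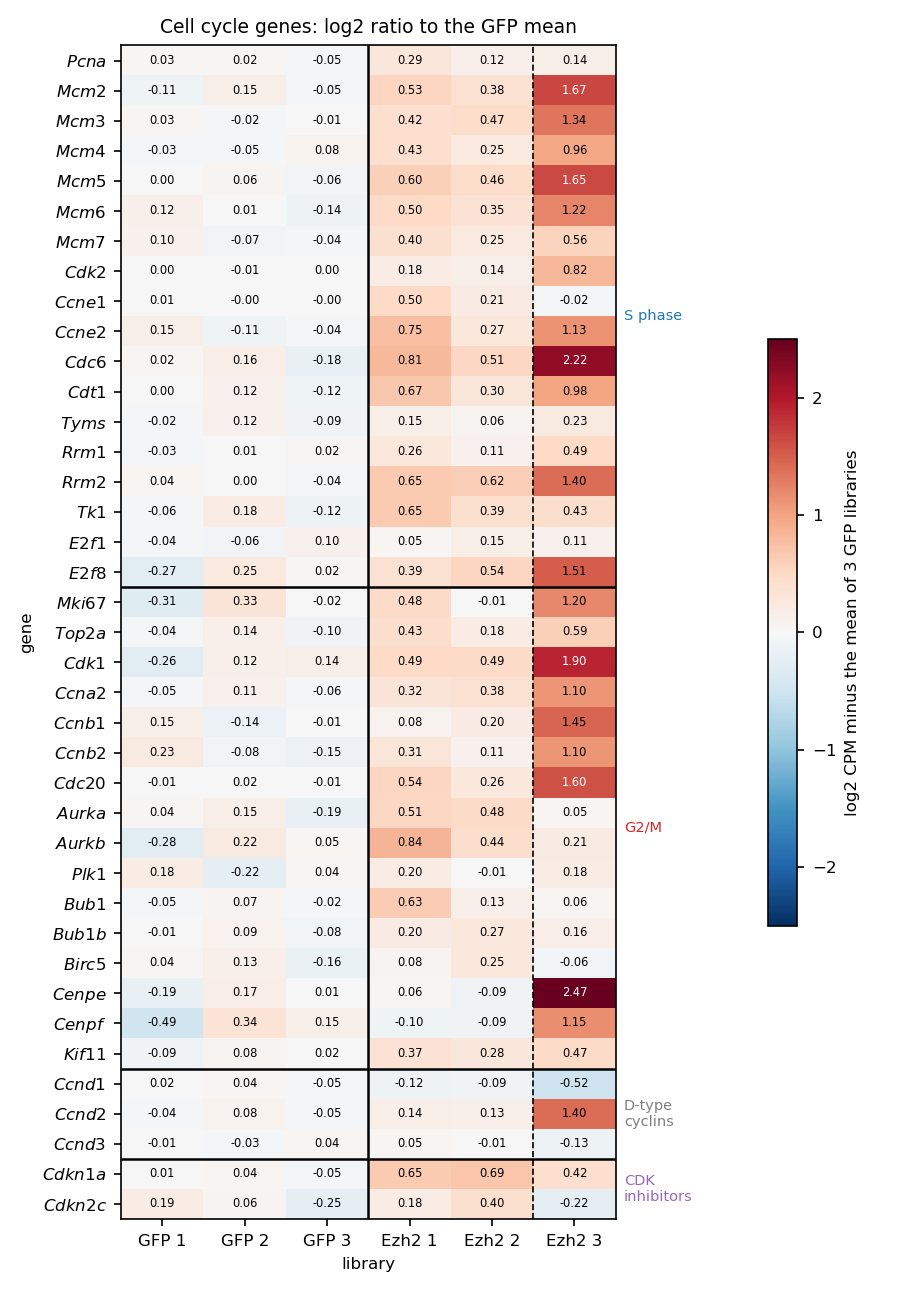
Log2 CPM of the 39 tested genes in each library, as the difference from the mean of the 3 GFP libraries (colour and printed value; rows are genes grouped by role, columns are libraries). All S phase rows are positive in Ezh2 1 and Ezh2 2, and Ezh2 3, right of the dashed line, reaches 2.22 for *Cdc6* and 2.47 for *Cenpe*.

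Promoter sequences of the called genes are shown first, since the factors that drive S phase and G2/M genes read short elements near their start sites. RefSeq promoter windows (build GRCm38.p6, 250 bases before to 50 after a start) were matched to 34 of the 40 genes, in 39 windows. *Aurkb*, *Ccna2*, *Ccnd1*, *Ccnd2*, *Ccne2* and *Mcm4* were without an entry. The bases shown precede the RefSeq start and leave out any that GENCODE places in an exon of the gene, and capitals mark the elements searched. *Mcm6* and *Cdk1* were added, after the matches were seen, as an S phase and a G2/M gene with several matches.
*Cdc6*, chr11:98907982-98908150, + strand: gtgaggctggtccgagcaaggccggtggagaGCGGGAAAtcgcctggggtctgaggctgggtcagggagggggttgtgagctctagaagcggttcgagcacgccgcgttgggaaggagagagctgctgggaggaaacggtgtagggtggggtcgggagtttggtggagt
*Rrm2*, chr12:24708004-24708240, + strand: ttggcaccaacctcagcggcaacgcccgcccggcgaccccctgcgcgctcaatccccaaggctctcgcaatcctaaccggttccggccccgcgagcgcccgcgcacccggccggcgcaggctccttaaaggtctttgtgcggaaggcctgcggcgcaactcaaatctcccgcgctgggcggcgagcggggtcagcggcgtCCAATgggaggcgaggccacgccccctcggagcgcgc
*Mcm6*, chr1:128359706-128359955, - strand: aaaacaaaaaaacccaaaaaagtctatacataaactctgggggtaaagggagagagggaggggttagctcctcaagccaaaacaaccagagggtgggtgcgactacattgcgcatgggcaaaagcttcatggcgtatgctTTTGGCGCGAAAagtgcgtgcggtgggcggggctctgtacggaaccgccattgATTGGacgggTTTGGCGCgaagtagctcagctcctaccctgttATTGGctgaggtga
*Cdk1*, chr10:69352939-69353162, - strand: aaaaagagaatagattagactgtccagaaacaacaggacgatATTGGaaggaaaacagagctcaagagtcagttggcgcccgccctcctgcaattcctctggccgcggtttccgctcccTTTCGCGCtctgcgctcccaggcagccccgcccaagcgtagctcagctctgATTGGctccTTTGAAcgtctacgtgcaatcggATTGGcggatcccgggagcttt
*Cdkn1a*, chr17:29090729-29090975, + strand: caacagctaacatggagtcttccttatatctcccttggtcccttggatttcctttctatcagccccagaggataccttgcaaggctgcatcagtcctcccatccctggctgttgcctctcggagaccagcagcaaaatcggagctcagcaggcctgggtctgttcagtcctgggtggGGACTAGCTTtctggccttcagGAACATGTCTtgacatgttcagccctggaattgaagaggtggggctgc
*Cdkn1a*, chr17:29093519-29093768, + strand: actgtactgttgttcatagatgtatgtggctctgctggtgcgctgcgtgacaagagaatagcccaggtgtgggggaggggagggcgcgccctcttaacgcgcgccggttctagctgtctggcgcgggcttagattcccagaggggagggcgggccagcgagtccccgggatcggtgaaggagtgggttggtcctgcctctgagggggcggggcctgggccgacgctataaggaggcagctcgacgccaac

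The elements searched on both strands were the E2F site (TTTCCCGC, TTTGGCGC, TTTCGCGC or TTTGCCGC), the cell cycle homology region or CHR (TTTGAA or TTCGAA) bound by the complexes of the later wave, and the CCAAT box. None of these motifs contains another, although matches can overlap by some letters, as E2F sites do in *Mcm6*. *Cdc6* holds GCGGGAAA, an E2F site read on the other strand, 138 bases before its start. *Mcm6* holds E2F sites that begin 110, 106 and 47 bases before its start. *Cdk1* holds an E2F site 131 bases and a CHR 71 bases before its start, with the CCAAT box, read as ATTGG, at 3 positions. *Rrm2* holds the CCAAT box 50 bases before its start. Upstream of its first start *Cdkn1a* holds 2 matches to the p53 consensus decamer, 73 and 51 bases before it, a search added after the sequences were seen. That decamer lies in the windows of 9.55% of all genes.

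Between the roles the elements divided. The E2F site lay in the windows of 7 of 16 S phase genes (43.8%) and 1 of 14 G2/M genes (7.14%), against 2.60% of 27025 genes with a window. That 1 G2/M gene was *Cdk1*, shown above. The CHR lay in 3 of 16 S phase genes (18.8%) and 11 of 14 G2/M genes (78.6%), against 21.7% of all. The CCAAT box lay in 10 of 16 S phase genes (62.5%) and 13 of 14 G2/M genes (92.9%), against 41.1% of all. These shares describe letters in windows that were not matched for base composition. Of the 17 genes past the adjusted p that have a window, 7 held an E2F site and 7 a CHR.

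Of the S phase genes 12 of 18 rose and 0 fell, where 10.1% of all tested genes rose and 7.68% fell. All 18 had a log2 fold change above 0, as had 9867 of all 20241 tested genes. The median of the 18 was 0.45 (1.36-fold). Without GFP 3 the number that rose was 7, and without Ezh2 1 it was 6. The MCM genes *Mcm2* to *Mcm7*, which encode the 6 subunits of the replicative helicase, all rose, by 0.33 to 0.54 on the log2 scale with adjusted p from 6.66e-06 to 0.00251 (edgeR quasi-likelihood test). *Mcm5*, with the smallest p, measured 28.9, 30.1 and 27.8 CPM in GFP 1 to 3 and 44.0, 39.8 and 90.8 in Ezh2 1 to 3. *Mcm3* measured 35.3, 34.1 and 34.5 CPM in GFP 1 to 3 and 46.5, 47.9 and 87.5 in Ezh2 1 to 3. For all 6 MCM genes every Ezh2 library lay above every GFP library, as was so for 14.9% of all genes.

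The licensing factors load that helicase onto origins. *Cdc6* (ENSMUSG00000017499, GRCm38 chr11:98907801-98923940) measured 4.22, 4.64 and 3.64 CPM in GFP 1 to 3 and 7.30, 5.94 and 19.6 in Ezh2 1 to 3, from 112 to 705 counts. The groups did not overlap, and the 5-library log2 fold change was 0.67 ± 0.19 (SE), adjusted p = 0.0106 by edgeR. It was not called without GFP 3 (0.58) or without Ezh2 1 (0.53). With all 6 libraries it was 1.45 ± 0.51 with an adjusted p of 0.157, and Ezh2 3 lay at 2.96 times the other Ezh2 libraries. *Cdt1*, its partner in loading, measured 7.49, 8.12 and 6.90 CPM in the GFP libraries and 11.99, 9.25 and 14.9 in the Ezh2 libraries, a log2 fold change of 0.51 ± 0.15 (adjusted p = 0.0136, edgeR).

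The nucleotide supply genes moved unequally. *Rrm2* (ENSMUSG00000020649, chr12:24708241-24714146), the regulated subunit of ribonucleotide reductase, measured 12.3, 12.01 and 11.6 CPM in GFP 1 to 3 and 18.8, 18.4 and 31.7 in Ezh2 1 to 3. It rose by 0.64 ± 0.11 on the log2 scale (adjusted p = 4.4e-05, edgeR), and with all 6 libraries by 0.99 ± 0.23 with an adjusted p of 0.0514. *Rrm1*, the constitutive subunit, rose by 0.20 ± 0.07 (adjusted p = 0.0309). *Tk1*, thymidine kinase, rose by 0.53 ± 0.15 (adjusted p = 0.0112), whereas *Tyms*, thymidylate synthase, had a log2 fold change of 0.11 ± 0.10 (adjusted p = 0.525, edgeR). *Pcna*, the sliding clamp of the replicative polymerases, rose by 0.22 ± 0.07 (adjusted p = 0.0217).

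The G1/S regulators did not pass the test. *Cdk2*, *Ccne1* and *Ccne2*, the kinase and E-type cyclins that fire the entry to S phase, had log2 fold changes of 0.17 ± 0.08, 0.38 ± 0.18 and 0.55 ± 0.27. *E2f1*, an activating E2F, measured 10.0, 9.83 and 11.03 CPM in GFP 1 to 3 and 10.7, 11.4 and 11.1 in Ezh2 1 to 3, and its log2 fold change was 0.11 ± 0.13. *E2f8*, a repressive E2F, had a log2 fold change of 0.47 ± 0.20. Adjusted p for these 5 and *Tyms* ran from 0.114 to 0.625 (edgeR), and *Ccne2* was among the lowest in the set, with 56 to 153 counts.

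**Figure D2:**
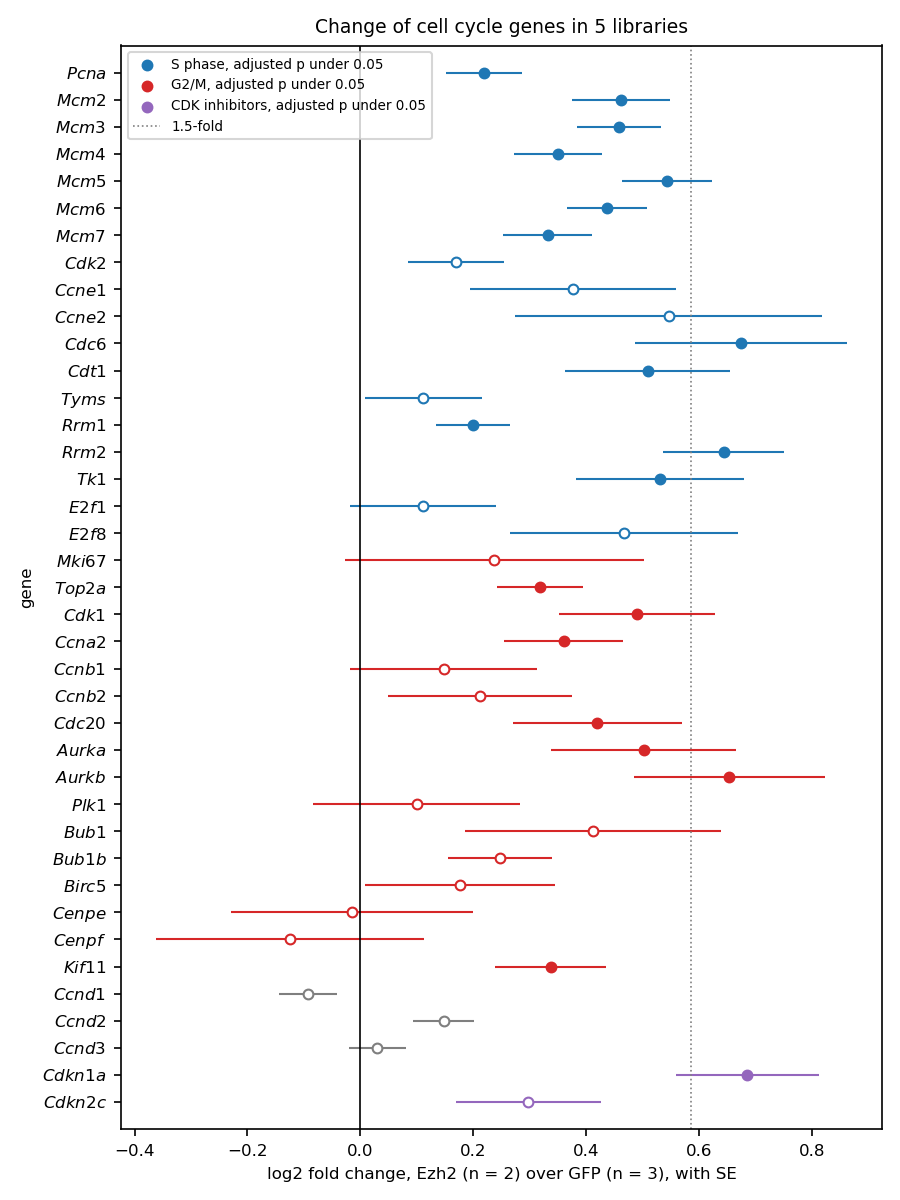
Log2 fold change of each tested gene between Ezh2 1 and 2 (n = 2) and GFP 1 to 3 (n = 3), with its SE as a bar. Filled points had an adjusted p below 0.05 and open points did not; the dotted line marks 1.5-fold, beyond which lie *Cdc6*, *Rrm2*, *Aurkb* and *Cdkn1a*.

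Of the G2/M genes 7 of 16 rose and 0 fell, where 10.1% of all tested genes rose and 7.68% fell. The median log2 fold change of the 16 was 0.28 (1.22-fold). The 7 that rose were *Top2a*, *Cdk1*, *Ccna2*, *Cdc20*, *Aurka*, *Aurkb* and *Kif11*. The number that rose was 4 without GFP 1 or GFP 3, and 2 without Ezh2 1 or Ezh2 2. *Aurkb* (ENSMUSG00000020897, chr11:69045647-69051664), the kinase of the chromosomal passenger complex, measured 4.74, 6.73 and 5.99 CPM in GFP 1 to 3 and 10.4, 7.85 and 6.67 in Ezh2 1 to 3. Its log2 fold change was 0.65 ± 0.17 (adjusted p = 0.0058, edgeR), 0.53 without GFP 1 and 0.46 without Ezh2 1, where it was no longer called. Ezh2 3 fell inside the GFP range, and with all 6 libraries the value was 0.54 ± 0.20 with an adjusted p of 0.142. *Aurka*, the centrosomal kinase, had a like profile, at 5.79, 6.29 and 4.95 CPM in the GFP libraries and 8.07, 7.88 and 5.87 in the Ezh2 libraries.

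*Cdk1*, the mitotic kinase, measured 7.26, 9.48 and 9.63 CPM in GFP 1 to 3 and 12.3, 12.2 and 32.6 in Ezh2 1 to 3, a log2 fold change of 0.49 ± 0.14 (adjusted p = 0.0112, edgeR). Of its cyclin partners *Ccna2* rose by 0.36 ± 0.11 (adjusted p = 0.015). *Ccnb1* and *Ccnb2*, the B-type cyclins of mitotic entry, had log2 fold changes of 0.15 ± 0.17 and 0.21 ± 0.16, and neither passed. *Top2a*, which untangles sister DNA, rose by 0.32 ± 0.08 (adjusted p = 0.00317). *Kif11*, the motor that separates spindle poles, rose by 0.34 ± 0.10 (adjusted p = 0.0151). *Cdc20*, an activator of the anaphase-promoting complex, lay at the threshold, at 0.42 ± 0.15 (adjusted p = 0.0494), and did not pass with DESeq2, limma-voom or other scalings.

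The other G2/M genes had adjusted p from 0.0622 to 0.977 (edgeR). *Mki67*, the usual marker of cycling cells, varied within both groups, at 17.5, 27.3 and 21.4 CPM in GFP 1 to 3 and 30.3, 21.5 and 49.8 in Ezh2 1 to 3. Its log2 fold change was 0.24 ± 0.27, and it was -0.01 without Ezh2 1. *Plk1*, a mitotic kinase, and *Birc5*, a passenger protein, had 0.10 ± 0.18 and 0.18 ± 0.17. The checkpoint kinase genes *Bub1* and *Bub1b* had 0.41 ± 0.23 and 0.25 ± 0.09. The kinetochore genes *Cenpe* and *Cenpf* had -0.01 ± 0.21 and -0.13 ± 0.24 without Ezh2 3, and 1.40 ± 0.83 and 0.47 ± 0.42 with it.

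Set side by side, the S phase genes had the larger median, by 0.17 on the log2 scale in the 5-library comparison. In each library the S phase median log2 ratio to the GFP mean minus the G2/M median was 0.04, -0.11 and -0.03 in GFP 1 to 3 and 0.12, 0.06 and 0.13 in Ezh2 1 to 3. All Ezh2 libraries lay above all GFP libraries in this difference, which was not tested. The order was not seen in 30 other S phase and 30 other G2/M genes, with 5-library medians of 0.27 and 0.34. In Ezh2 1 to 3 the median log2 ratios to the GFP mean were 0.34, 0.19 and 0.59 for those S phase genes. For those G2/M genes they were 0.35, 0.28 and 0.37. The median SE of a single gene was 0.10 for S phase and 0.17 for G2/M genes. With all 6 libraries 1 S phase gene and 0 G2/M genes passed the adjusted p in edgeR, 13 of 18 and 7 of 16 had an unadjusted p under 0.05, beside 24.5% of all genes, and the medians were 0.68 and 0.51.

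The D-type cyclins act before S phase and are also expressed in cells that do not divide. Per kilobase of exon, *Ccnd1* and *Ccnd3* had the highest levels of the 40 in the GFP mean, 36.3 and 23.5 CPM per kilobase, with *Pcna* at 22.4 and *Ccnd2* at 12.7. None passed the test in the 5 libraries. *Ccnd1* measured 173, 175 and 164 CPM in GFP 1 to 3 and 157, 161 and 119 in Ezh2 1 to 3, a log2 fold change of -0.09 ± 0.05 (adjusted p = 0.24, edgeR). *Ccnd3* had 0.03 ± 0.05. *Ccnd2* measured 117, 127 and 116 CPM in the GFP libraries and 132, 131 and 316 in the Ezh2 libraries. Its 5-library log2 fold change was 0.15 ± 0.05 (adjusted p = 0.0576, edgeR), and Ezh2 3 lay far above all the others.

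Among the CDK inhibitors *Cdkn1a* (ENSMUSG00000023067, chr17:29090976-29100727), which encodes p21, the p53-induced brake on CDK2, had the largest log2 fold change of the 39. It measured 8.51, 8.72 and 8.20 CPM in GFP 1 to 3 and 13.3, 13.7 and 11.4 in Ezh2 1 to 3, and the groups did not overlap. The log2 fold change was 0.69 ± 0.13 (adjusted p = 0.000163, edgeR), and 0.63 ± 0.13 with all 6 libraries (adjusted p = 0.0235). Unlike the MCM genes it was not further raised in Ezh2 3, which lay at 0.841 times the other Ezh2 libraries. *Cdkn2c*, which encodes an inhibitor of CDK4 and CDK6, had a log2 fold change of 0.30 ± 0.13 (adjusted p = 0.115), and *Cdkn2a* lay at 0.0932 to 0.316 CPM in all libraries.

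**Figure D3:**
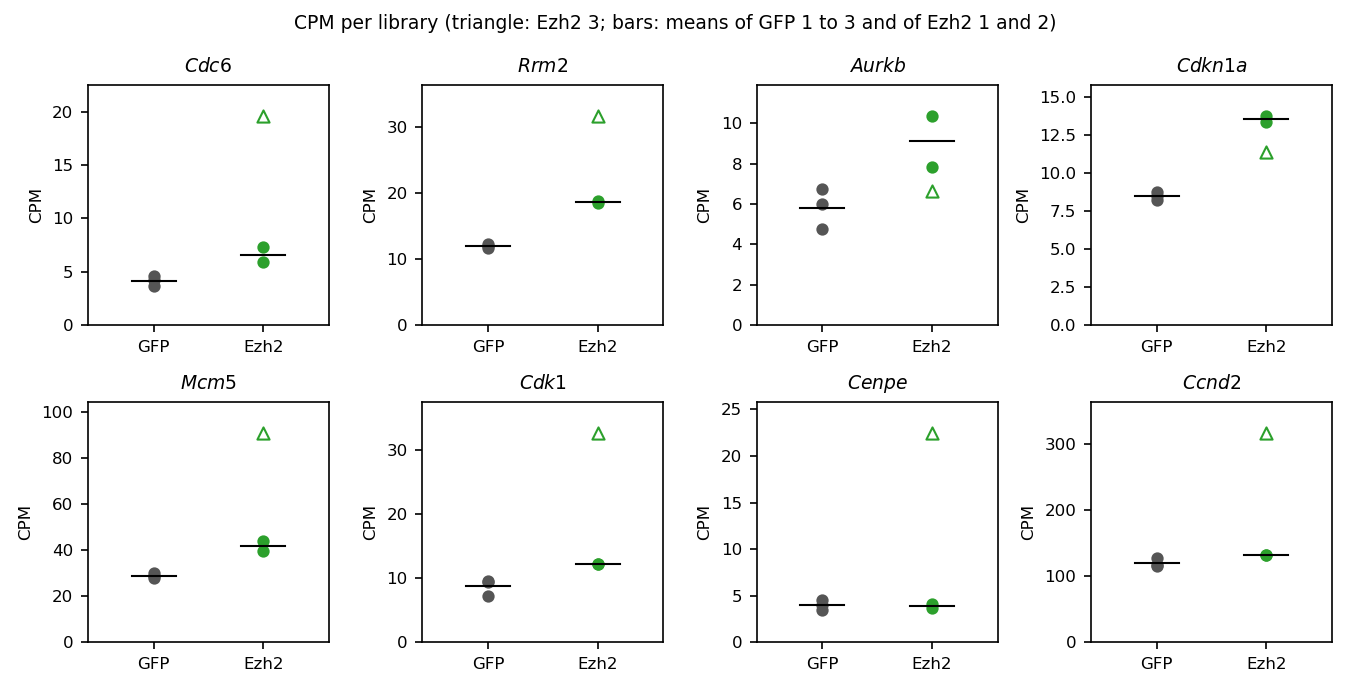
CPM in each library (vertical axes start at 0) for the 4 called genes, *Cdc6*, *Rrm2*, *Aurkb* and *Cdkn1a*, and for *Mcm5*, *Cdk1*, *Cenpe* and *Ccnd2*; circles are GFP 1 to 3 and Ezh2 1 and 2 with their means as bars, and the triangle is Ezh2 3. Ezh2 3 is the highest point for *Cdc6*, *Rrm2*, *Mcm5*, *Cdk1*, *Cenpe* and *Ccnd2*, and the lowest Ezh2 point for *Aurkb* and *Cdkn1a*.

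Ezh2 3 carried a further rise in part of the set. Its log2 ratio to the mean of Ezh2 1 and 2 had a median of 0.62 (1.54-fold) over S phase genes and 0.52 (1.43-fold) over G2/M genes, and 19 of the 39 tested genes were over 1.5-fold higher in it, where 10.2% of all genes were. These were 10 S phase genes, 8 G2/M genes and *Ccnd2*. The ratio was 5.62-fold for *Cenpe*, 2.96-fold for *Cdc6*, 2.65-fold for *Cdk1*, 2.48-fold for *Ccnb1* and 2.37-fold for *Cenpf*. It was at or below 1.06-fold for *Aurka*, *Aurkb*, *Plk1*, *Bub1*, *Bub1b* and *Birc5*, so the mitotic genes divided within this library. Against every other library, 8 of the 40 genes were more than 2-fold higher in Ezh2 3, as were 2.74% of all genes. Being 1 library, it has no replicate and was given no test.

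Other genes of the pathway were read from lists of S phase and G2/M genes. Of 30 other S phase genes 11 rose and 0 fell (edgeR, 5 libraries), where 10.1% of all tested genes rose and 7.68% fell, with a median log2 fold change of 0.27. The 6 called were *Exo1* (0.93 ± 0.23), a mismatch repair exonuclease, *Dtl* (0.74 ± 0.17), which marks CDT1 for destruction, *Ung* (0.74 ± 0.23), a uracil glycosylase, *Rad51ap1* (0.68 ± 0.24), *Chaf1b* (0.62 ± 0.20), a histone chaperone subunit, and *Mcm10* (0.59 ± 0.18). Of all tested genes 2.52% were called higher. In the 6-library fit *Exo1* was the only one of the 30 to pass, at an adjusted p of 0.0366 (edgeR), where 3.08% of all genes rose. Of 30 other G2/M genes 6 rose and 1 fell, beside the same shares of all genes, with a median of 0.34. *Psrc1*, a spindle protein gene, was called at 0.91 ± 0.27, *Hmgb2*, which encodes a chromatin protein abundant in cycling cells, rose by 0.58 ± 0.08, and the histone chaperone gene *Hjurp* fell, at -0.23 ± 0.06. In the 6-library fit 0 of these 30 passed in edgeR, and 13 had an unadjusted p under 0.05, beside 24.5% of all genes.

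Of 19 genes of the retinoblastoma, E2F and DREAM complexes, which act upstream, 3 rose and 1 fell, with a median of 0.09. Those counts lay near the shares of all tested genes, 10.1% higher and 7.68% lower. *Cdk4* rose by 0.28 ± 0.07, *Foxm1* by 0.48 ± 0.16 and *Rbl1*, a relative of *Rb1*, by 0.25 ± 0.09. *Rb1*, which encodes the retinoblastoma protein, fell, at -0.26 ± 0.05 (adjusted p = 0.000463, edgeR), and kept an adjusted p of 0.0355 with all 6 libraries. Of 5 other CDK inhibitors *Cdkn1c*, which encodes p57, was called, at 15.5, 15.3 and 14.6 CPM in GFP 1 to 3 and 26.1, 31.9 and 26.0 in Ezh2 1 to 3. Its log2 fold change was 0.95 ± 0.10 (adjusted p = 2.75e-08, edgeR), and 0.93 with all 6 libraries.

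Of 12 p53 targets apart from *Cdkn1a*, 7 rose and 0 fell, where 10.1% of all tested genes rose, with a median of 0.33. The called ones were *Gdf15* (2.00 ± 0.55), a stress cytokine gene at 0.163 to 0.316 CPM in GFP libraries and 0.807, 1.17 and 1.501 in Ezh2 1 to 3, *Eda2r* (1.01 ± 0.26), a receptor of the tumour necrosis factor family, and *Btg2* (0.60 ± 0.05), an antiproliferative gene. *Ccng1* rose by 0.41 ± 0.06 without reaching 1.5-fold. *Mdm2*, the feedback inhibitor of p53, had 0.07 ± 0.06 (adjusted p = 0.51, edgeR). In the 6-library fit 4 of the 12 rose, *Gdf15*, *Eda2r*, *Btg2* and *Gadd45a*, against 3.08% of all genes. The share of all tested genes called higher in the 5 libraries was 2.52%.

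Marker lists were summed in the same libraries. The summed CPM of the S phase genes was 423, 424 and 409 in GFP 1 to 3 and 555, 508 and 821 in Ezh2 1 to 3, and that of the G2/M genes was 182, 208 and 185 against 249, 222 and 353. The summed CPM of 14 T cell markers was 630, 615 and 583 against 789, 757 and 1305. In the 5 libraries 13 of the 14 rose, where 10.1% of all tested genes rose. Of the 14, *Cd8a* and *Cd8b1*, the CD8 chains, were called, at 1.38 ± 0.08 and 1.31 ± 0.10 on the log2 scale. Among all tested genes 2.52% were called higher. With all 6 libraries 3 of the 14 rose, against 3.08% of all genes. The S phase sum divided by the T cell sum was 0.672, 0.690 and 0.702 in GFP 1 to 3 and 0.703, 0.671 and 0.629 in Ezh2 1 to 3. Divided by the sum of 8 macrophage markers it was 0.706, 0.679 and 0.735 against 0.290, 0.207 and 0.494. Divided by the sum of 12 regulatory T cell markers it was 1.04, 1.07 and 1.06 against 1.22, 1.26 and 0.397, and divided by the sum of 8 Muller glia markers it was 0.0151, 0.0154 and 0.0146 against 0.0208, 0.0178 and 0.0373. These quotients were computed after the values were seen, and they assign the mRNAs to no cell type.

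The summed CPM of 12 regulatory T cell markers was 387 to 408 in GFP libraries, 454 and 402 in Ezh2 1 and 2, and 2065 in Ezh2 3, where *Foxp3*, their defining factor, measured 92.4 CPM against 9.02 to 11.5 elsewhere. The summed CPM of 8 macrophage markers was 557 to 624 in GFP libraries and 1915, 2452 and 1660 in Ezh2 1 to 3. All 7 tested markers rose in the 5 libraries, where 10.1% of all tested genes rose. With all 6 libraries 6 of the 7 rose, against 3.08% of all genes. *Cd163* was at or near 0. Microglia markers summed to 1233 to 1373 CPM in GFP libraries and 1525, 1589 and 1078 in Ezh2 1 to 3, B and plasma cell markers to 476 to 527 and 518, 489 and 298, and rod markers to 401 to 471 and 713, 756 and 423. Endothelial markers summed to 3215 to 3380 CPM and 2926, 2942 and 2337, and amacrine markers to 509 to 530 and 453, 444 and 399. No erythrocyte marker exceeded 11 counts. Whether these cells carried the cell cycle mRNAs was not tested, and bulk libraries do not assign a transcript to a cell.

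**Figure D4:**
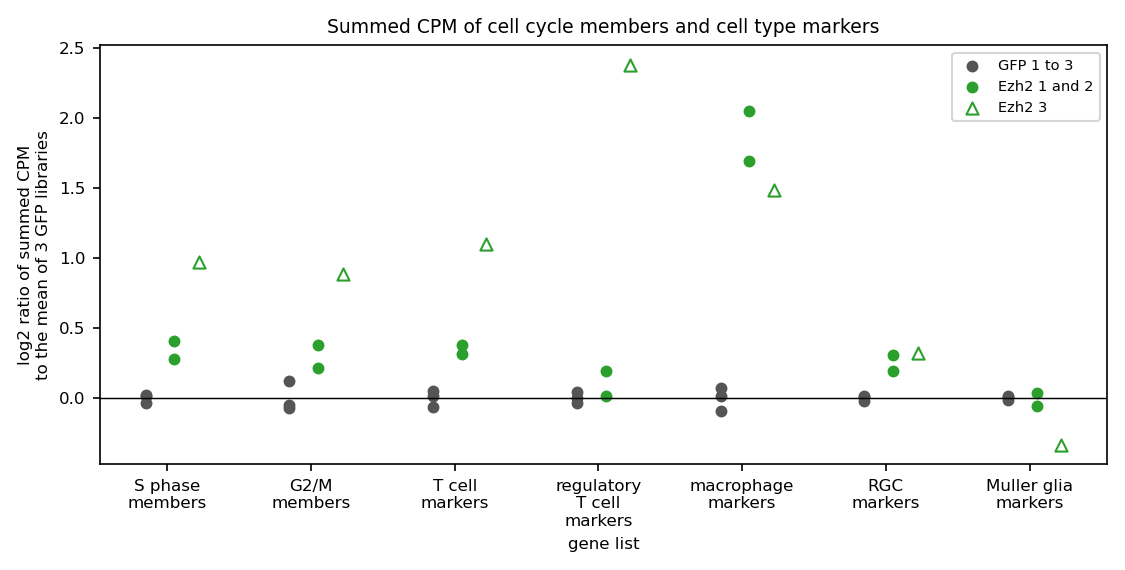
Log2 ratio of the summed CPM of each gene list to its mean in the 3 GFP libraries, for each library (circles, GFP 1 to 3 and Ezh2 1 and 2; triangles, Ezh2 3). S phase, G2/M, T cell and RGC sums are above the GFP libraries in all Ezh2 libraries, macrophage sums are highest in Ezh2 2, and regulatory T cell sums are raised in Ezh2 3.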

How the data were processed

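The authors deposited unnormalized read counts, 1 row for each Ensembl gene, for 6 libraries made with a stranded total RNA kit. The submitters' processing notes name STAR 2.7.0d and GRCm38. The counting program, annotation release and strand setting were not given in the sources used here. Reads of the 12 genes that overlap an antisense gene therefore cannot be assigned by strand. Of these 12, 5 were past the adjusted p, *Mcm7* and *Cdkn1a* among them. Of the 55573 identifiers 55480 matched GENCODE M21, which supplied symbols and coordinates. From the deposited counts, edgeR 4.0.16 (R 4.3.3) was used with filterByExpr, TMM scaling and the robust quasi-likelihood F test, with group as the only term, on GFP 1 to 3 and Ezh2 1 and 2. The library left out in the study was taken to be Ezh2 3 from the columns of its heat map. Calls needed an adjusted p below 0.05 together with more than 1.5-fold change. SE is the log2 fold change over the square root of F. CPM used library totals, and log2 ratios used a prior count of 2. A count of 0 allows up to 3 counts, 0.0834 to 0.0981 CPM, by counting error only. As alternatives the fit was repeated with all 6 libraries, without each library in turn, with a replicate block, and with DESeq2 1.42.0, limma-voom (limma 3.58.1), glmTreat, other size factors, filters and prior counts. No 2 libraries of the same group agreed within sampling noise, and libraries of different groups were not compared in this way. The calling procedure was tested on simulated counts. The members and the lists (other S phase and G2/M genes, retinoblastoma, E2F and DREAM regulators, CDK inhibitors, p53 targets and cell type markers) were chosen with earlier results of these data known. All members were named, and of the other lists those called or among the 4 with the smallest p. *Foxp3*, *Mdm2*, *Cd163*, *Rbpms* and the *Pou4f* genes were added after their values were seen.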

Additional observations from a re-analysis of the deposited data

Results flagged for a closer look

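In Ezh2 3, the library left out of the main comparison, 8 of the 40 genes measured more than 2-fold above every other library, the GFP controls included, as did 2.74% of all genes. *Ccnd2* measured 316 CPM there. The helicase genes *Mcm5* and *Mcm2* measured 90.8 and 83.0 CPM, and the licensing gene *Cdc6* 19.6. Among the mitotic genes *Cdk1* measured 32.6, *Cenpe* 22.5, *Cdc20* 20.9 and *Ccnb1* 17.1 CPM. With 1 library there is no replicate of these values and no test was made. Markers of regulatory T cells summed to 2065 CPM in the same library against 387 to 454 in the others, and their part in these values was not tested.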

How the results depend on the processing

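Scaling by DESeq2 size factors in edgeR or by library totals, DESeq2, limma-voom and the removal of the count filter left 19 of the 20 genes past the adjusted p, *Cdc20* being the one lost, and called the same 4; the median over all genes moved by less than 0.02 between scalings. A test against a 1.5-fold change itself (glmTreat) called 0 of the 4, and with DESeq2 2 of the regulators passed in place of 4. With all 6 libraries, 1 gene was called and 2 passed, of which 1 S phase and 0 G2/M, and 1 other S phase gene, 0 other G2/M genes, 1 regulator and 4 p53 targets passed, while the S phase median was 0.68, the G2/M median 0.51, and *Cenpe* and *Cenpf* turned to 1.40 and 0.47. The cause of these changes was not tested.

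With a library left out of the 5 or of the 6, the number called ranged from 0 to 7, the number past the adjusted p from 0 to 19 (S phase 0 to 12, G2/M 0 to 6), and the other lists from 0 to 8 (other S phase), 0 to 6 (other G2/M), 0 to 3 (regulators) and 1 to 7 (p53 targets). Over all genes the number called then ranged from 110 to 794, and the number past the adjusted p from 112 to 3160. The S phase median ranged from 0.31 to 0.83 and the G2/M median from 0.24 to 0.64. Signs turned for *Mki67* (-0.013 to 0.92), *Plk1* (-0.0050 to 0.25), *Cenpe* (-0.11 to 1.81), *Cenpf* (-0.33 to 0.70) and *Ccnd3* (-0.010 to 0.051).

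Same-numbered libraries did not deviate together from their group means (correlations of -0.0045, -0.020 and -0.0099). The outlying Ezh2 3 is part of the Ezh2 mean and could mask a shared deviation, so pairing by number was not excluded. With a replicate block on 5 libraries 12 genes passed (7 S phase, 4 G2/M), with 4 other G2/M genes and 2 regulators, and the S phase median was 0.41. With a replicate block on all 6 libraries 0 were called or passed (0 S phase, 0 G2/M), with 1 other S phase gene, 0 other G2/M genes, 0 regulators and 3 p53 targets, while the medians were 0.64 and 0.49, *Cenpe* was 0.86 and *Cenpf* 0.37. With 5 libraries and 3 residual degrees of freedom, differences near the SE of the low-count genes were not detectable.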
